A study of Xenopus tropicalis with 4 samples.

Results

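The genes 42Sp43, 42Sp50 and gtf3a encode the proteins that hold 5S ribosomal RNA and transfer RNA in the young frog oocyte. They were taken from the deposited table by symbol, as 3 of its 15410 genes, and hold 13 of its 66426 polyadenylation sites. The frogs are adult Xenopus tropicalis, a clawed frog with a diploid genome, and the 4 libraries come from the whole bodies of 2 females and 2 males, 1 frog each. The labels name no strain, age or treatment, and tell the frogs apart by sex and replicate number only. The assay, WTTS-seq, sequences transcripts at the poly(A) tail, so a read is taken as 1 transcript end and levels need no scaling by length. Priming on A-rich stretches inside an RNA was not checked.

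A growing oocyte makes 5S RNA and transfer RNA long before it assembles the ribosomes that need them, and in Xenopus laevis these RNAs wait in storage particles. The product of gtf3a, transcription factor IIIA, is a zinc finger protein that directs RNA polymerase III to the 5S genes and then binds the 5S RNA itself. 42Sp43 (thesaurin b) is a related zinc finger protein that binds 5S RNA in the larger of the particles. 42Sp50 (thesaurin a) is a relative of the elongation factor eEF1A and binds transfer RNA in the same particle.

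Depth was 2380500 reads for female 1, 1778737 for female 2, 2779715 for male 1 and 1531471 for male 2. The reads outside any gene made up 3.98% and 14.37% for the females, against 13.12% and 9.43% for the males. A read was worth 0.39 and 0.437 CPM (reads scaled to the effective library size) in females 1 and 2, against 0.61 and 0.949 CPM in males 1 and 2. Of 13 oocyte marker genes with sites, such as those of the egg coat, 9 had 0 reads in both males. The markers summed to 9639 and 7603 reads in females 1 and 2 and to 5 reads in each male. Skeletal muscle markers summed to 9660 and 4810 CPM in the females, against 131000 and 73200 CPM in the males. In whole-body RNA, more cells of a type and more RNA per cell cannot be told apart.

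All 3 genes were higher in females, and they differed in what was left in males. 42Sp43 had no read in either male, 42Sp50 had a few, and gtf3a had a low level in both. By edgeR's quasi-likelihood test over 10188 genes, 19.6% of genes were called higher in females and 17.1% higher in males (adjusted p under 0.05). Both females stood above both males in 42.6% of tested genes, the 3 members among them.

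42Sp43 (chromosome 10) had 488 and 193 reads in females 1 and 2, against 0 and 0 reads in males 1 and 2. On the CPM scale its levels were 190 and 84.3 in the females, and 3 reads would have been 1.83 and 2.85 CPM in males 1 and 2. Females averaged 137 ± 74.9 CPM (SD, n = 2), at least 126-fold above a floor of 3 reads over both males (edgeR, adjusted p = 0.00593). The bound was 74.6-fold without female 1, 50-fold without male 1 and 82.3-fold without male 2. The gene entered the test through its female reads alone.

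42Sp50 (chromosome 6) had 443 and 311 reads in females 1 and 2, against 7 and 4 reads in males 1 and 2. Its levels were 173 and 136 CPM in the females, against 4.27 and 3.79 CPM in the males. The groups did not overlap. The means were 154 ± 26.1 CPM in females and 4.03 ± 0.337 CPM in males (SD, n = 2 each), with a fitted log2 fold, female over male, of 5.23 ± 0.65 (SE; edgeR, adjusted p = 0.00577). Like 42Sp43, this gene passed the read filter through female reads alone, so its direction was nearly fixed by its being tested.

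gtf3a (chromosome 2) had 438 and 370 reads in females 1 and 2, against 30 and 17 reads in males 1 and 2. Its levels were 171 and 162 CPM in the females, against 18.3 and 16.1 CPM in the males. This is the member with the smallest fold and the most male reads. The means were 166 ± 6.45 CPM in females and 17.2 ± 1.54 CPM in males (SD, n = 2 each), with a log2 fold of 3.26 ± 0.56 (SE; edgeR, adjusted p = 0.00832), a 9.6-fold difference.

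**Figure D1:**
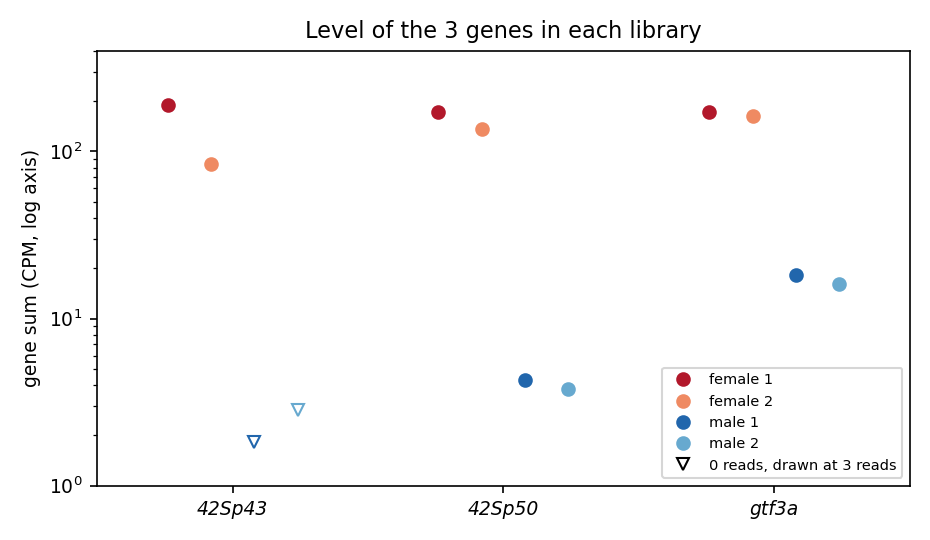
Level of 42Sp43, 42Sp50 and gtf3a in each library as CPM on a log axis, 1 point per frog. The female points lie between 84.3 and 190 CPM for all 3 genes. The male points of 42Sp50 and gtf3a lie at 3.79 to 18.3 CPM, and the open triangles mark 42Sp43, with 0 reads, at the level 3 reads would have.

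The fold of each gene depends on the scaling. The median log2 fold of all tested genes was 0.35 with the TMM scaling used here. It was 1.25 with library size alone and 4.16 when the muscle and liver markers were set to a median of 0. The log2 fold of 42Sp50 was 6.11 and 9.01 on those scalings and that of gtf3a was 4.17 and 7.07. A scaling moves all genes by nearly the same amount. The call of each of the 3 genes held under all 13 alternatives tried, with an adjusted p of at most 0.0357.

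**Figure D2:**
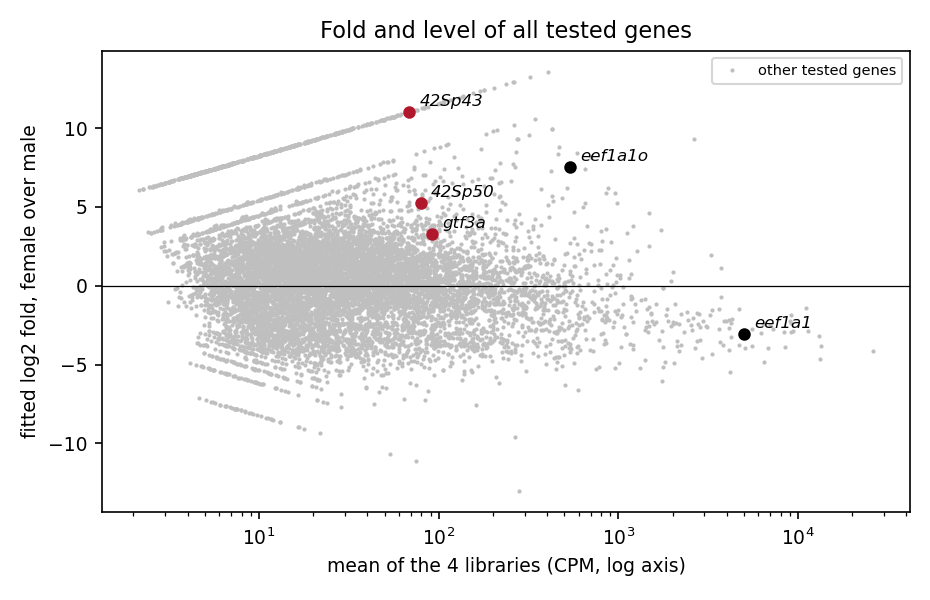
Fitted log2 fold, female over male, against the mean CPM of the 4 libraries (log axis) for the 10188 tested genes in grey, with the 3 members in red and eef1a1o and eef1a1 in black. 42Sp50 lies at 5.23 and gtf3a at 3.26, while the fitted value of 42Sp43 rests on a prior count because the males had 0 reads. The same holds for the other genes on the sloping lines, with 0 reads in the males or in the females.

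The 3 genes took similar shares of their summed reads in female 1, where 42Sp43 had 35.6%, 42Sp50 32.4% and gtf3a 32.0%. In female 2 the shares were 22.1%, 35.6% and 42.3% (95% Clopper-Pearson intervals 19.4 to 25.0, 32.4 to 38.9 and 39.0 to 45.7). The interval of 42Sp43 in female 1, 33.1 to 38.2, did not meet its interval in female 2. These intervals cover counting error only, since no molecular identifiers are named. Female 1 was 2.25-fold above female 2 in 42Sp43, against 1.27-fold in 42Sp50, 1.06-fold in gtf3a and 1.13-fold in the summed oocyte markers, all in CPM. The sum covers markers that differed in both directions. In females 1 and 2, zp4 had 1040 and 658 CPM and npm2 had 55 and 166 CPM. The gap in npm2 was larger than that in 42Sp43, and opposite. Set against 100 reads of the oocyte markers, 42Sp43 had 5.06 and 2.54 reads in females 1 and 2. The same measure was 4.6 and 4.09 for 42Sp50, and 4.54 and 4.87 for gtf3a. The 2 females are single frogs, so this difference between them has no test.

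In the males gtf3a took most of the few reads, with 81.1% of 37 reads in male 1 and 81.0% of 21 reads in male 2. 42Sp50 took 18.9% and 19.0%. With the limit set at 3 reads, a count of 0 of 37 and of 21 allows 42Sp43 a share of up to 8.11% and 14.3%. The ratio of 42Sp50 reads to gtf3a reads was 1.01 and 0.841 in the females, against 0.233 and 0.235 in the males, a within-library measure that no scaling changes. The sexes did not overlap in it, and the exact two-sided permutation test gave p = 0.333, the smallest that 2 frogs against 2 can give.

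Among all genes with a read, 42Sp43 ranked 791 of 13396 in female 1 and 1779 of 13455 in female 2 by reads. 42Sp50 ranked 886 and 999 in females 1 and 2, and 8935 of 11443 and 9613 of 13091 in males 1 and 2. gtf3a ranked 899 and 783 in the females, against 5106 and 5570 in the males.

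Each gene ended mainly at 1 of its listed sites. The main sites differ in width, with 319 bases for 42Sp43, 63 for 42Sp50 and 29 for gtf3a. Whether a wide site holds more than 1 end was not checked. All 13 sites lie on the minus strand, and positions are those of the deposited table, whose genome build is not given in the sources used here. Over both females the most used site held 98.7% of 42Sp43 reads, 99.1% of 42Sp50 reads and 88.0% of gtf3a reads. The median over 2799 genes with at least 100 reads in each female was 80.0%. A share as large as that of 42Sp43 was seen in 17.9% of those genes, as large as that of 42Sp50 in 15.7%, and as large as that of gtf3a in 39.9%. For each of the 3 genes that site is classed as overlapping an exon, while none of the 13 sites lay in an intron or on the opposite strand.

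The main 42Sp43 site (position 3436321) had 482 and 190 reads in the females, against 0 and 0 in the males. The table gives it a span of 319 bases (3436070 to 3436388). A span of that width or more was found in 1.66% of tested sites, whose median was 44 bases. Downstream of the gene, 389 bases beyond the main site, a second site had 4 and 3 reads in the females. Another, 1362 bases beyond, had 2 and 0. Both had 0 reads in the males.

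The main 42Sp50 site (position 128121077) had 437 and 310 reads in females 1 and 2, against 7 and 4 in males 1 and 2. Its other site, 287 bases downstream, had 6 and 1 reads in the females, against 0 in both males. The 7 and 4 male reads of the gene are too few to set a useful limit on its share there.

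gtf3a had more listed sites, 8 in all. Its main site (position 152471511) had 394 and 317 reads in females 1 and 2, against 30 and 15 reads in males 1 and 2. It took 90.0% and 85.7% of gene reads in the females (95% Clopper-Pearson intervals 86.7 to 92.6 and 81.7 to 89.1), and 100% and 88.2% in the males (88.4 to 100 and 63.6 to 98.5). A run of 5 sites lies 159 to 931 bases downstream, and 2 sites lie 154 and 304 bases upstream, inside an exon. The male reads outside the main site were 2, both in male 2.

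The downstream run held 37 of 438 reads in female 1 and 35 of 370 in female 2, or 8.45% and 9.46%. It held 0 of 30 reads in male 1, which allows up to 10% with the limit set at 3 reads, and 1 of 17 in male 2, or 5.88% (interval 0.149 to 28.7). Over the pooled reads of all genes, downstream sites held 6.58% and 6.26% in the females, against 4.25% and 3.99% in the males. Gene by gene, the median downstream share over both females was 0% among 2799 genes with at least 100 reads in each female. It was 8.91% for gtf3a. The leading downstream site, 358 bases beyond the main one, had 14 and 13 reads in the females, against 0 in both males. The next, 546 bases beyond, had 14 and 11 reads in the females, against 0 and 1 in males 1 and 2. The exonic pair held 7 reads in female 1 and 18 in female 2. Of these, the site 154 bases upstream had 1 read in female 1 and 11 in female 2.

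**Figure D3:**
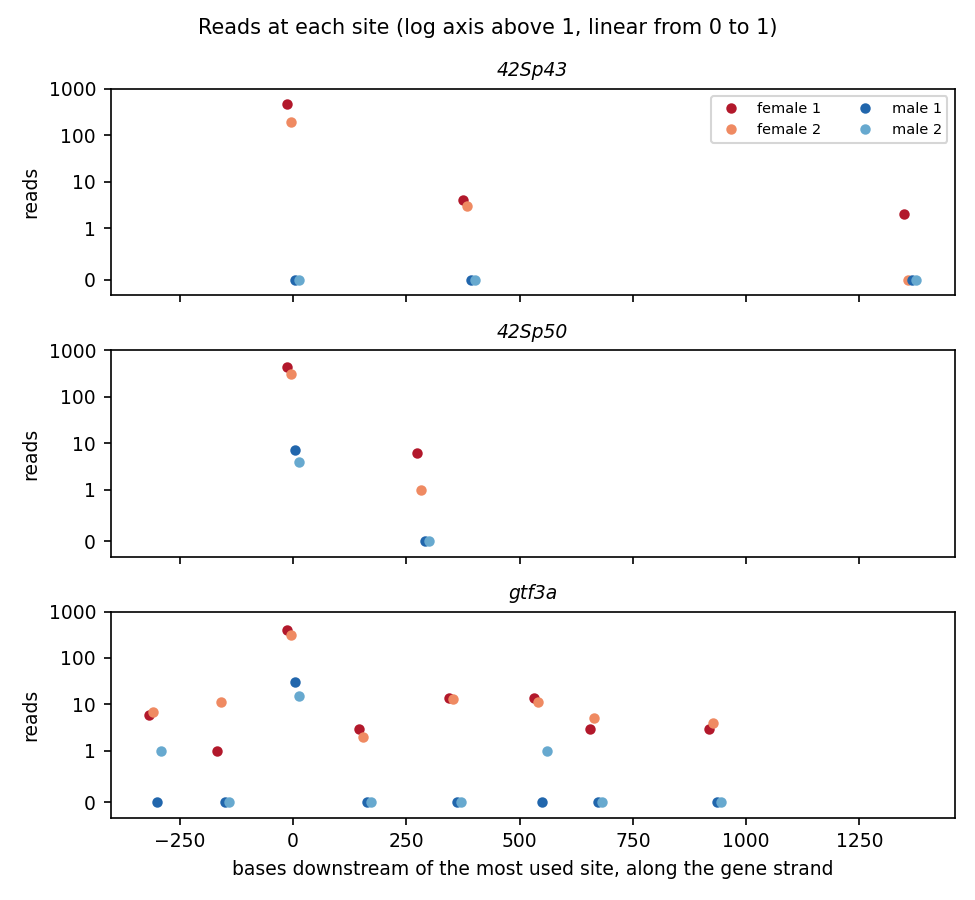
Reads at each of the 13 sites in each library, by distance in bases downstream of the gene's most used site, on an axis that is linear from 0 to 1 and logarithmic above. The female points at distance 0 lie at 190 to 482 reads, and all other sites had at most 14 reads in any library.

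Use of the gtf3a sites did not pass a test of difference between the sexes. In edgeR's diffSpliceDGE gene-level test on its 3 sites with enough reads, the adjusted p was 0.421, where 15.3% of 3503 tested genes passed. 42Sp43 and 42Sp50 each had 1 site with enough reads, so their site use has no test.

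By single sites, 5 of the 13 had enough reads for edgeR's test, and all 5 were higher in females, where 19.9% of 17215 tested sites were called so and 45% had both females above both males. They were the 3 main sites (adjusted p = 0.0197 for each) and the gtf3a sites 358 and 546 bases downstream (adjusted p = 0.0197 and 0.037). All of these but the main gtf3a site passed the read filter through female reads alone, so their direction was nearly fixed by their being tested. Leaving out any 1 of the 4 libraries ended the calls of these last 2 or left them with too few reads to test, so that 3 sites were called. The log2 folds of the main sites of 42Sp50 and gtf3a were 5.38 ± 0.75 and 3.32 ± 0.67 (SE). The other 8 sites had 2 to 13 reads over both females and 0 or 1 over both males. In the authors' deposited table the FDR-adjusted p was 1.31e-06 for the main site of 42Sp43, 9.14e-05 for that of 42Sp50 and 0.00718 for that of gtf3a. The authors' deposited table called 3 of the 13 sites at an FDR under 0.05, from the same counts.

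The eEF1A family, to which 42Sp50 belongs, was split between the sexes. eef1a1o, the oocyte form of the elongation factor that carries aminoacyl transfer RNA to the ribosome, had 2809 and 2386 reads in females 1 and 2, against 16 and 1 reads in males 1 and 2. Its log2 fold was 7.54 ± 1.08 (SE; edgeR, adjusted p = 0.00651), and 10.06 without male 1. The male reads of eef1a1o alone would not have passed the read filter. eef1a1, the general form, had 1110 and 1040 CPM in the females, against 10200 and 7730 CPM in the males (log2 -3.05 ± 0.85, adjusted p = 0.0277). eef1a2, the muscle and nerve form, had 97.5 and 28.8 CPM in the females, against 589 and 687 CPM in the males (log2 -3.33 ± 0.75, adjusted p = 0.0159). The eef1a1 call was lost without any 1 library (adjusted p from 0.0641 to 0.112), and the eef1a2 call without female 2 (adjusted p = 0.0871). Without female 1 the log2 fold of eef1a2 was -4.48. With muscle and liver markers set to 0, eef1a1 and eef1a2 turned to log2 folds of 0.76 and 0.48.

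Shares within the family do not depend on scaling. 42Sp50 took 6.98% and 6.03% of the reads of the 4 genes in females 1 and 2, against 0.0397% and 0.0451% in males 1 and 2. eef1a1o took 44.2% and 46.3% in the females, against 0.0907% and 0.0113% in the males. eef1a1 took 44.9% and 46.4% in the females, against 94.4% and 91.8% in the males. eef1a2 took 3.94% and 1.28% in the females, against 5.47% and 8.16% in the males. The sexes did not overlap in the share of any of the 4 genes. How often shares in other families do so was not tested. Reads shared between related copies cannot be assigned with certainty.

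**Figure D4:**
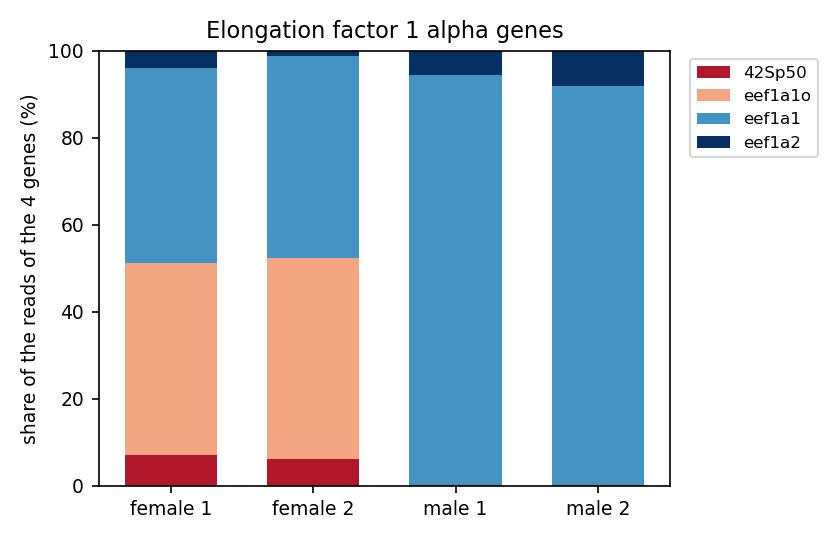
Share of the summed reads of 42Sp50, eef1a1o, eef1a1 and eef1a2 held by each gene, as percent, 1 bar per library. In both females eef1a1o alone makes up about as much as eef1a1, and 42Sp50 holds 6.98% and 6.03%. Neither 42Sp50 nor eef1a1o is visible in the males, where eef1a1 holds 94.4% and 91.8%.

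Of the 7 elongation factor 1 genes listed, 2 were called higher in females and 3 higher in males, beside 19.6% and 17.1% of all tested genes (edgeR; median log2 -1.94, against 0.35 over all genes). The females' pair was eef1a1o and eef1e1, a scaffold protein of the transfer RNA synthetase complex. The male reads of either gene would not have passed the read filter alone, so their direction was nearly fixed by their being tested. eef1e1 had 28 and 73 reads in the females, against 0 and 3 in the males, a ratio of 18.7 (counting interval 6.21 to 92.1, adjusted p = 0.0474). Its call was lost without female 1, female 2 or male 1, each of which left 1 gene called. eef1d, an exchange factor subunit, was higher in males (log2 -1.94 ± 0.60, adjusted p = 0.0382), and turned to 1.88 with the muscle and liver markers set to 0. Its call was lost without any 1 library, with library size alone (adjusted p = 0.157), with no read filter (0.0641) and with a filter of 1 CPM in 2 libraries (0.0593). The other exchange factor subunits did not pass, with log2 folds of 0.19 ± 0.58 for eef1b2 and -2.40 ± 0.82 for eef1g (adjusted p = 0.807 and 0.0511). eef1g did pass with DESeq2 (adjusted p = 0.00245), with the replicate block (0.00286) and without intronic sites (0.0404). With the muscle and liver markers set to 0, eef1b2 passed at a log2 fold of 4.01 (adjusted p = 0.000911) and eef1g turned to 1.42 (adjusted p = 0.123).

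Of the genes whose products bind 5S RNA or carry it into the ribosome, 1 of 6 was called higher in females and 1 higher in males, near the background of 19.6% and 17.1%. The gene called higher in females, rpf2, passed the read filter through female reads alone, so its direction was nearly fixed by its being tested. rpf2, a factor that helps to place the 5S ribonucleoprotein in the new ribosomal subunit, had 73.7 and 92.6 CPM in the females, against 17.7 and 4.74 CPM in the males (log2 2.84 ± 0.74, adjusted p = 0.0228 by edgeR). That call was lost without female 1 (adjusted p = 0.0711) and without female 2 (adjusted p = 0.0622), and the log2 fold was 4.13 without male 1. rrs1, its partner, had a log2 fold of 1.47 ± 0.73 (adjusted p = 0.142), and passed without male 1, which left 2 called, with library size alone (adjusted p = 0.0273), with the replicate block (0.0177) and with the muscle and liver markers set to 0 (0.000737). Among ribosomal proteins that bind 5S RNA, rpl11 had 25.7 and 52.9 CPM in the females, against 104 and 272 CPM in the males (log2 -2.25 ± 0.69, adjusted p = 0.0367), and rpl5 had a log2 fold of -1.82 ± 0.74 (adjusted p = 0.0851). rpl5 was called higher in males with DESeq2 (adjusted p = 0.0108) and with the replicate block (0.0101), and higher in females with the muscle and liver markers set to 0 (log2 2, adjusted p = 0.0362). The rpl11 call was lost without female 1, female 2 or male 2 and with library size alone, and turned to 1.56 with the muscle and liver markers set to 0. ssb, the La protein that binds new RNA polymerase III transcripts, had a log2 fold of 0.00 ± 0.52 (adjusted p = 0.996). heatr3 had one of 0.06 ± 0.92 (adjusted p = 0.964).

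RNA polymerase III makes both 5S RNA and transfer RNA. The polymerase and its factors had 7 of 18 tested genes called higher in females, or 38.9% beside the background of 19.6%, and 1 higher in males (edgeR, median log2 1.70). With female 1 or female 2 left out, fewer of these genes were called, and so were fewer of all tested genes. polr3g, a subunit known in mammals from embryonic stem cells, had 162 and 122 reads in females 1 and 2, against 0 in both males, at least 52.5-fold higher (adjusted p = 0.00661). polr3gl, its paralog in other mammalian cells, was singled out after its values were seen. It passed the read filter through male reads alone, so its direction was nearly fixed by its being tested. It had 1 and 3 reads in the females, against 18 and 14 in the males (log2 -3.75 ± 1.03, edgeR adjusted p = 0.0263). That call held in only 5 of 13 alternatives. Among those that ended it were leaving out any 1 library, library size alone (adjusted p = 0.0546) and the muscle and liver markers set to 0 (log2 -0.04). polr3e, another subunit, had 111 and 105 CPM in the females, against 12.8 and 15.2 CPM in the males (log2 2.95 ± 0.57, adjusted p = 0.0109). The 7 genes called higher in females were polr3d, polr3e, polr3f and polr3g, and the TFIIIC subunit genes gtf3c2, gtf3c4 and gtf3c6. All but polr3e passed the read filter through female reads alone. polr3f and the TFIIIC subunit gene gtf3c2 had 0 reads in both males and were at least 16.8-fold and 13.5-fold higher in females (adjusted p = 0.0149 and 0.0147). Both of these calls were lost without female 1 or female 2. Without male 1 the bounds of polr3g, polr3f and gtf3c2 were 20.8-fold, 6.68-fold and 5.36-fold, and without male 2 they were 34.3-fold, 11-fold and 8.82-fold. tbp, the TATA-binding protein gene, had 39 and 46.7 CPM in the females, against 6.71 and 19.9 CPM in the males, and did not pass (log2 1.71 ± 0.73, adjusted p = 0.0993), though it did without male 2 (adjusted p = 0.024), with library size alone (0.0339) and with the replicate block (0.0338). It also passed without intronic sites (log2 4.12, adjusted p = 0.0138) and with the muscle and liver markers set to 0 (adjusted p = 0.000577). tbpl2, its relative in oocytes, had 2 and 14 reads in the females, against 0 in both males, too few for the test.

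Of the genes for proteins that store messenger RNA in oocytes, 7 of 9 tested were called higher in females, beside 19.6% of all tested genes (edgeR; median log2 3.25). patl2 and zar1 had 0 reads in both males and were at least 246-fold and 60.5-fold higher (adjusted p = 0.00561 and 0.00651). Their bounds were 97.7-fold and 24-fold without male 1, and 161-fold and 39.5-fold without male 2. zar1l had 2275 and 1871 reads in the females, against 0 and 2 in the males, a ratio of 1150 (counting interval 318 to 9500). Its fitted log2 fold was 9.96 (edgeR, adjusted p = 0.0057), and 8.78 without male 1. cpeb1, which controls cytoplasmic polyadenylation, had a log2 fold of 5.90 ± 0.78 (adjusted p = 0.00616), and of 5.21 without female 2. It, zar1l, patl2 and zar1 all passed the read filter through female reads alone. ybx1 and ddx6 did not pass, at -1.37 ± 0.68 and 1.36 ± 0.64 (edgeR adjusted p = 0.144 and 0.128). ddx6 stayed uncalled in 9 of 13 alternatives and passed in the others, among them the fit without male 2. ybx1 was called higher in males with the replicate block (log2 -1.58, adjusted p = 0.0135) and higher in females with the muscle and liver markers set to 0 (log2 2.45, adjusted p = 0.0102).

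**Figure D5:**
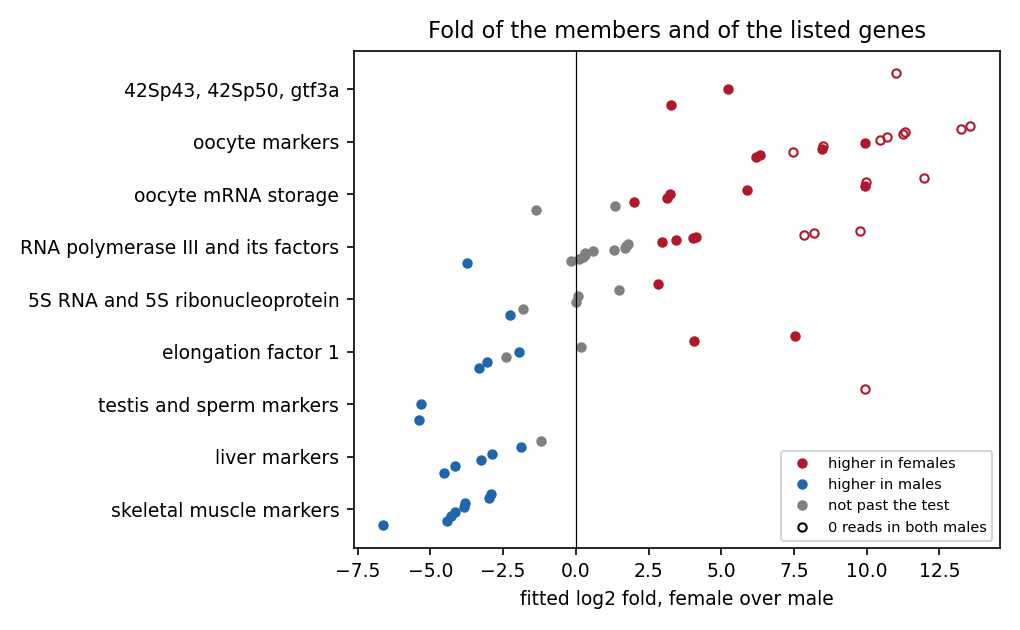
Fitted log2 fold, female over male, of the 3 members and of each tested gene of 8 lists, 1 point per gene. Red points were called higher in females, blue points higher in males and grey points did not pass, and open points mark genes with 0 reads in both males. All 12 tested oocyte markers lie right of 0 and all 8 muscle markers left of it, while the elongation factor 1 and 5S ribonucleoprotein genes lie on both sides.

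The marker lists set the members against whole tissues. All 12 tested oocyte markers were called higher in females (edgeR), beside 19.6% of all tested genes. All 12 passed the read filter through female reads alone, so their direction was nearly fixed by their being tested. Among them were pou5f3.3, velo1 and zpd with 0 reads in both males and kpna7 with 4 male reads in all. gtf3a, with 30 and 17 reads in males 1 and 2, thus had more male reads than the 13 oocyte markers summed, which had 5 and 5. 42Sp50, with 7 and 4, was near that sum. All 8 muscle markers, led by mybpc2, des.1, ryr1 and tnni2, were called higher in males, beside 17.1% of all tested genes. So were 5 of 6 liver markers, led by kng1, serpinc1, fgb and f2. Of 3 tested testis and sperm markers, odf3 and tekt1 were called higher in males, and the germ cell gene ddx4 (33 and 267 reads in the females, 0 in both males) higher in females. Each of the 3 passed the read filter through the reads of 1 sex alone. The call of ddx4 was lost without female 2, as were those of fgb, f2 and tnni2. That of tnni2 was also lost without male 2, and that of tekt1 without female 1 or female 2. The part of these tissues in the levels of the members was not tested.

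The genes most alike to each member were found by distance between centred log2 CPM profiles over the 4 libraries, among 8196 genes of at least 10 CPM on average. For 42Sp43 they were cyp26a1, pgat, LOC100491633, hist1h4a and zfp36l2.1, at distances of 0.15 to 0.42, all with 0 reads in both males. With 0 male reads, the prior count of 2 in the log2 values makes nearness follow the female level. cyp26a1, whose product breaks down retinoic acid, had 455 and 209 reads in the females. For 42Sp50 they were LOC101732039, gpr160, LOC100487171, LOC105945164 and LOC733726 (0.16 to 0.22). These have lower levels than 42Sp50 and 0 reads in both males, and the prior count of 2 in the log2 values brings them close. For gtf3a they were c9orf114, fam151b, tatdn2, eme2 and fscn1 (0.13 to 0.22), each with some reads in both males. In males 1 and 2, c9orf114 had only 5 and 3 reads, tatdn2 4 and 2, and eme2 2 and 1. The prior count thus bears on the distances of these genes as well. fscn1, which encodes an actin-bundling protein, had 932 and 685 reads in the females, against 67 and 40 in the males. On the same measure 42Sp43 and 42Sp50 lay 2.08 apart, 42Sp50 and gtf3a 1.74, and 42Sp43 and gtf3a 3.80, so no member was among the nearest genes of another. The distances of 42Sp43 depend on the prior count too.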

How the data were processed

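Whole-body RNA of 4 frogs was sequenced by WTTS-seq, with Trizol extraction, fragmentation, poly(A) enrichment and PCR, per the labels' protocols. The submitters' processing notes list Bowtie2 2.2.3, and the build and the rule for grouping reads into sites are not stated there. The authors deposited raw read counts per site. Beside them the deposited table holds p-values and a signed fold change (taken as a score) from a test of females against males by an unnamed tool. A line of column totals was left out.

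The class code of each site was interpreted by Cuffcompare's scheme, although the file names none. Gene sums left out the 2709 sites on the strand opposite to the gene. Chromosome numbers come from a RefSeq gene table (UCB_Xtro_10.0), used for no position. The counts went into edgeR 4.0.16 (R 4.3.3) with TMM, filterByExpr (minimum count 10, minimum total 15), glmQLFit, glmQLFTest on sex, Benjamini-Hochberg adjustment at 0.05 over all genes or sites, and diffSpliceDGE for site use. Fitted standard errors are the log2 fold divided by the square root of F. A fold against 0 reads is a bound set at 3 reads over both males, and with 1 to 3 male reads the text gives a ratio and a 95% Clopper-Pearson interval of the counts. The edgeR fits were tested on simulated data, in which the site use test made more false calls than its threshold allows. DESeq2 1.42.0 was an alternative.

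The members and lists were chosen with earlier results of these data known. Named were the members and their sites, the elongation factor 1 genes, rpl5, rpl11, ssb, tbp and tbpl2, up to 4 genes of smallest adjusted p in each other list, and the 5 genes most alike to each member. Outside this rule the text also names ybx1, ddx6, heatr3, polr3gl, further called genes of the RNA polymerase III list and the genes next to the members. zp4 and npm2 were named for their gaps between the females.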

Additional observations from a re-analysis of the deposited data

How the results depend on the processing

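The calls of 42Sp43, 42Sp50 and gtf3a held under all 13 alternatives, the scaling to muscle and liver markers having been added after the data were seen. Without 1 library the bound of 42Sp43 was 50 to 186-fold, and the log2 folds were 5.02 to 5.51 for 42Sp50 and 3.2 to 3.43 for gtf3a. Genes called higher in females numbered 1995, and 3290 with library size alone, 7846 with the muscle and liver scaling, and 641 to 2495 without 1 library. Of called genes 53.4% were higher in females, and 75.9% and 99.2% on those scalings. The fit with TMM and both of those scalings each tested 10188 genes. With 7846 of them called on the muscle and liver scaling, most genes of any list would be called there, so the list counts on it say little about the lists. The count of all called genes also changed without 1 library, and the list ranges were not tested against that change. The 5S ribonucleoprotein list had 1 gene called, and 2 with library size alone, 5 with the muscle and liver scaling and 0 to 2 without 1 library. The RNA polymerase III list had 7, with 17 on the muscle and liver scaling and 3 to 10 without 1 library. The elongation factor 1 list had 2, with 1 when opposite strand sites were summed, 1 without intronic sites, 4 on the muscle and liver scaling and 1 to 2 without 1 library. The muscle and liver scaling turned eef1a1 (0.76), eef1a2 (0.48), eef1d (1.88), rpl11 (1.56), tnni2 (0.02), fgb (0.94), f2 (0.55) and rpl19 (1.37), and, among genes not called at first, eef1g (1.42), rpl5 (2), ybx1 (2.45), fam49b (3.24) and rpl21 (2.17). tnni2, fgb and f2 are among the markers that this scaling sets to a median of 0, so some markers had to turn. Other genes not called also turned in sign. fam49b was 0.3 with library size alone and 0.8 without intronic sites, eef1b2 was -0.05 without intronic sites, and ssb was -0.01 with RLE size factors, -0.01 with DESeq2 and -0.29 without intronic sites. Without 1 library, eef1b2 ranged over -0.28 to 0.67, ssb over -0.21 to 0.37 and heatr3 over -0.58 to 1.24. Sites called higher in females numbered 3431, with 8921 under a filter of 1 CPM in 2 libraries and a range of 1616 to 3415 without 1 library. Of the members' sites 5 were called, and 3 with no filter or without any 1 library, the 3 main sites each time. DESeq2 called 4 of 5 tested, and a filter of 1 CPM in 2 libraries gave 7 of 10 tested. With no filter all 13 were tested. Site use of gtf3a had an adjusted p of 0.338 to 0.94 and could not be tested without female 1. The cause of these changes was not tested. Across 59 other named genes, 667 of 765 comparisons with an alternative left a gene on its side of the threshold, 70 lost a call and 28 gained one, while the sign turned in 23, 8 of them for genes called at first. Replicate numbers are shared between the sexes, but frogs of the same number share only that number as far as the labels say (correlation of deviations 0.31 over 10188 genes). With the replicate block, 2 genes of the 5S ribonucleoprotein list and 3 member sites were called, and the 3 members kept their calls (42Sp50 5.24, gtf3a 3.27). Depth limits the males: 0, 11 and 47 reads of 42Sp43, 42Sp50 and gtf3a.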

Other observations

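Of the 6 genes that lie next to a member, 4 had enough reads for the test. None of the 4 was called higher in females with the TMM scaling, where 19.6% of all tested genes were. With the muscle and liver scaling, asap1 (log2 4.75, adjusted p = 0.000601), fam49b (3.24, 0.00822) and rpl21 (2.17, 0.0281) were called so by edgeR, as were 7846 of all tested genes. 42Sp50 lies tail to tail with asap1, an adaptor protein gene of the plus strand, and their most used sites are 3935 bases apart in the deposited table. asap1 had 30.8 and 27.1 CPM in the females, against 14 and 16.1 CPM in the males (log2 0.94 ± 0.65, edgeR adjusted p = 0.277). 42Sp43 has the ribosomal protein gene rpl19 on its upstream side, with most used sites 11352 bases apart. rpl19 had 742 and 494 CPM in the females, against 2820 and 3930 CPM in the males (log2 -2.45 ± 0.74, adjusted p = 0.0356), which did not pass with library size alone or without any 1 library, and a direction turned by the muscle and liver scaling (1.37). The nearest genes of gtf3a with reads, lnx2 and rpl21, lie 40812 and 86135 bases away. lnx2 had 0 and 2 reads in the females, against 2 and 0 in the males, and rpl21 had a log2 fold of -1.65 ± 0.77 (adjusted p = 0.123). On the other sides, stac2 beside 42Sp43 had 3 and 4 reads in the females, against 2 and 3 in the males, and fam49b beside 42Sp50 had a log2 fold of -0.56 ± 0.81 (adjusted p = 0.604). These neighbours were listed after the data were seen. Whether a neighbour differs in fold from its member was not tested.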
